A study of Mus musculus with 18 samples.

Results

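Early Eomes intermediate progenitors of the mouse forebrain at embryonic day 14 are described here from single-nucleus RNA sequencing. A nucleus was counted among them if it had 800 to 6000 UMIs (unique molecular identifiers, the RNA molecules counted), 300 to 3000 genes and at most 1% mitochondrial UMIs, if Eomes was detected with a count of at least 1, if at least 2 of the 6 genes Neurog2, Gadd45g, Btg2, Nfatc2, Dll1 and Rhbdl3 were detected, and if none of Neurod2, Neurod6 and Dlx6os1 was. The rule found 5089 nuclei, 2.52% of the 201952 nuclei within the limits. The 9 embryos contributed 366 to 722 of them each, and the 18 libraries 90 to 585.

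In the developing cortex, radial glia line the ventricle and divide to renew themselves or to give rise to intermediate progenitors. Intermediate progenitors switch on the T-box factor Eomes (Tbr2), divide in the subventricular zone and produce excitatory neurons. Proneural factors such as Neurog2 start this step and switch on Notch ligands such as Dll1, which keep neighbouring cells in the progenitor state, while Neurod2 and Neurod6 mark the neurons that follow.

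The study asked how loss of MYT1L, a zinc finger transcription factor of neurons, alters cortical development. All embryos came from the MYT1L S710fsX line (C57BL/6-Myt1lem1Jdd/J), in which a frameshift disrupts Myt1l. There were 3 WT, 3 Het (1 mutant allele) and 3 KO (both alleles mutant) embryos from Het by Het crosses. Nuclei of frozen forebrain were fixed and barcoded by splitting and pooling (Scale Biosciences), and each embryo was sequenced in 2 runs.

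Titles gave genotype, replicate number and run. For the 9 run 1 libraries a second label, the genotype tag, says WT throughout and so disagrees with the titles, which were followed. Embryos are named here by genotype and replicate number, such as KO 1. Nuclei within the limits numbered 38929 in run 1 and 163023 in run 2, and 15312 to 27028 per embryo. The early nuclei of an embryo had a median of 2208 to 3004 UMIs, with the lowest value in WT 1 and the highest in Het 2. No barcode occurred among the early nuclei of more than 1 library, while 116 early nuclei (2.28%) carried a barcode that was also a kept nucleus of another library. For 112 of the 116 that nucleus belonged to another embryo. By Xist and Y-linked RNA, 1 WT embryo (WT 3) was female and the other 8 male, so sex was not balanced between genotypes. KO is a frameshift with a countable transcript, so Myt1l RNA does not check the genotype labels.

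Eomes was detected in 25357 nuclei (12.6%). Of these, 11187 also held Neurod2 or Neurod6 RNA, 2771 held Dlx6os1, a noncoding RNA of inhibitory neurons, and 12330 held none of the 3. Of the 47952 nuclei with Dlx6os1 and without Neurod2 or Neurod6, where Eomes is not known to act, 3.84% held an Eomes UMI at a median of 2451 UMIs. Early nuclei had a median of 2554 UMIs and 1643 genes.

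The 6 further genes were not equally frequent. Rhbdl3, a rhomboid-family membrane protein, was detected in 88.7% of early nuclei. Neurog2, the proneural factor of the cortex, was detected in 60.9% and the Notch ligand Dll1 in 41.7%. The antiproliferative genes Btg2 and Gadd45g reached 30.2% and 24.7%, and Nfatc2, a calcium-regulated transcription factor, 15.6%. The pair Neurog2 with Rhbdl3 alone admitted 1116 nuclei (21.9%), Dll1 with Rhbdl3 525 (10.3%), and Neurog2, Dll1 and Rhbdl3 together 395 (7.76%). These shares follow from the rule and are a description. Where each nucleus was thinned to 1500 UMIs, Rhbdl3 was found in 71.3% of early nuclei, Neurog2 in 39.0% and Dll1 in 26.6%.

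Among the 12330 Eomes nuclei without the excluded genes, 3382 held 0 of the 6, 3859 held 1, 2836 held 2, 1518 held 3, 590 held 4, 128 held 5 and 17 held all 6. Nuclei with exactly 2 were therefore 55.7% of the early nuclei. Just outside the threshold, nuclei with 1 of 6 had a median of 2352 UMIs and a mean of 1.97 Eomes UMIs. Just inside, nuclei with 2 of 6 had 2411 UMIs and 2.41 Eomes UMIs. Nuclei with 4 or more had 2936 UMIs and 3.27 Eomes UMIs, so depth rose along the same order.

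Some genes outside the rule were ordered along the number of rule genes detected, and others were not. Levels are CPM, the UMIs of a gene scaled to a library of 1e+06 UMIs, of the summed nuclei of an embryo, averaged over the 9 embryos, at 0, 1, 2, 3 and 4 or more of the 6 genes. Myt1l fell along this order from 903 to 401, 188, 104 and 65.4 CPM. Gria2, a glutamate receptor subunit (1228, 786, 497, 368 and 310 CPM), had the same order, as did Unc5d, a netrin receptor of migrating cells, with 2754, 2397, 1687, 1127 and 602 CPM. The reverse order was found for Smoc1, a secreted matrix protein, with 41.3, 102, 165, 233 and 277 CPM. It was also found for Mfng, the fringe enzyme that modifies Notch signalling, with 46.7, 93.4, 120, 134 and 138 CPM, and for Hes6 (28.4, 55.3, 86.0, 113 and 132 CPM) and Insm1 (40.5, 68.6, 94.4, 115 and 127 CPM), both of the neurogenic list. Other neurogenic factors ran the other way, Neurod1 with 80.3, 66.3, 63.6, 39.2 and 28.5 CPM and Nhlh2 with 31.3, 23.2, 14.3, 12.3 and 8.27 CPM. Sox11 (806, 767, 749, 687 and 720 CPM) and Kif26b, a kinesin-family gene (375, 679, 805, 746 and 564 CPM), followed neither order. Reln, the secreted protein of Cajal-Retzius cells, ran from 1143 CPM at 0 of 6 to 493, 171, 97.7 and 52.2 CPM. Nuclei that held Eomes but few of the rule genes thus included RNA of neurons and of Cajal-Retzius cells, and the rule left most of it out. The nuclei were sorted by counts of their own genes, so these orders carry no test.

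Genes that the rule did not use were examined beside the name. They were listed with earlier results of these data known and are no independent support for it. Of 16 other genes of intermediate progenitors, 15 had at least 10 CPM in the early nuclei, Tmem74b being the exception at 0.856 CPM. The same level was reached by 15 in nuclei with Eomes and Neurod2 or Neurod6 and by 13 in those without Eomes. It was reached by 12 in nuclei with Dlx6os1 and by 11 in Pax6 radial glia nuclei. This count alone thus does not set the early nuclei apart. The RNA-binding protein gene Elavl4 was detected in 81.2% of nuclei, Elavl2 in 79.8%, Kif26b in 48.6% and the vesicular glutamate transporter Slc17a6 in 24.5%. Emx1 and Lhx2, transcription factors of the pallium, were at 117 and 270 CPM. Of the 8 markers of microglia, 8 of vessels and mural cells, 6 of red blood cells and 5 of oligodendrocyte progenitors, none reached 10 CPM, and C1qb, Hba-x and Sox10 had no count at all. Per embryo, the microglial sum was 5.26 to 20.2 CPM, the vascular sum 8.98 to 24.5, the red blood cell sum 0 to 7.93 and the oligodendrocyte progenitor sum 3.64 to 8.77.

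Other cell types of the pallium and subpallium left more RNA. At least 2 of 6 Cajal-Retzius markers (Reln, Trp73, Lhx1, Lhx5, Calb2 and Ebf3) were detected in 108 early nuclei (2.12%), and Dlx1 or Dlx2, factors of inhibitory progenitors, in 199 (3.91%). Per embryo, nuclei with Cajal-Retzius markers were 0.808 to 3.80% and nuclei with Dlx1 or Dlx2 2.46 to 5.37%. Erbb4 carried the largest part of the subpallial RNA at 175 CPM, whereas Gad1 was at 7.32 and Dlx5 at 1.38 CPM. Summed per embryo, the intermediate progenitor genes reached 6265 to 7636 CPM in the early nuclei and 1142 to 1571 CPM in Pax6 radial glia nuclei, but 9338 to 12689 CPM in nuclei with Eomes and Neurod2 or Neurod6 and 5535 to 7067 CPM in those with Neurod2 or Neurod6 but no Eomes. In nuclei with Dlx6os1 but no Neurod2 or Neurod6 the sum was 3508 to 3943 CPM. The early nuclei thus lay above radial glia and the Dlx6os1 nuclei and below the nuclei with both kinds of gene. They overlapped the nuclei with Neurod2 or Neurod6 but no Eomes.

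To place the early nuclei between their neighbours, they were compared with 6781 Pax6 radial glia nuclei (Pax6 and at least 2 of Hes5, Slc1a3, Sox2, Veph1, Hes1 and Ednrb detected, no Eomes, Neurod2, Neurod6, Dlx6os1, Dlx1 or Dlx2; median 3060 UMIs) and with 10256 late Eomes nuclei (Eomes with Neurod2 or Neurod6, no Dlx6os1; median 2957.5 UMIs). Each set was summed per embryo and compared within embryos. The sets were drawn by gene counts in the same nuclei. Counts of genes past the edgeR threshold and log2 differences are therefore given as a description, without p-values. Genes that a rule used were left out. The gene lists were chosen with earlier results of these data known, so their counts against all genes are a description too.

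Against Pax6 radial glia, 1514 of 11524 genes (13.1%) passed an adjusted p of 0.05 and a log2 difference beyond 1, of which 584 (5.07%) were higher and 930 (8.07%) lower in the early nuclei. The proneural programme was higher. Of 13 proneural and neurogenic factors tested, 9 were higher and 1, the inhibitor Id4, was lower. Neurog1 averaged 28.2 CPM in early nuclei and 1.33 CPM in radial glia (log2 difference 4.53, SE 0.22), and Neurod1, a factor of later progenitors, 51.1 and 4.12 CPM (3.72, SE 0.20). Hes6, an antagonist of Hes1, averaged 102 and 13.5 CPM (2.93, SE 0.09), Insm1, a zinc finger factor that promotes basal progenitors, 106 and 23.5 CPM (2.196, SE 0.08). Sox4 and Sox11, which act in newborn neurons, differed by 1.44 and 1.12. All of them were higher in the early nuclei in 9 of 9 embryos.

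Of 15 other intermediate progenitor genes, 11 were higher than in radial glia, against 5.07% of all genes, and none was lower. Kif26b rose from 24.9 ± 10.2 to 749.5 ± 77.1 CPM (SD, n = 9 embryos, log2 difference 5.02, SE 0.08), and Slc17a6 from 8.14 ± 4.59 to 218 ± 24.4 CPM (4.93, SE 0.12). Sstr2, a somatostatin receptor, had 3.88 ± 2.00 and 82.6 ± 20.1 CPM (4.597, SE 0.16). The largest difference among the genes named by the rule of size was that of Rbfox3, the splicing factor known as NeuN, at 22.3 ± 6.15 CPM in radial glia and 743.5 ± 63.6 CPM in early nuclei (5.16, SE 0.08). Ebf2 (4.604), Igsf21 (4.36), St18 (4.35), Clvs1 (4.33), Prmt8 (4.29) and Srrm4, a splicing factor of neurons (49.3 ± 11.5 and 903 ± 74.3 CPM, 4.28), followed. In each of the 9 embryos these genes were higher in the early nuclei. The 6 Cajal-Retzius genes tested, Ebf2 among them, were all higher than in radial glia too (median 2.54), against 5.07% of all genes. A rise over radial glia was thus not particular to the intermediate progenitor list.

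Genes of radial glia were lower. Of 11 radial glia markers that neither rule used, 8 were lower, against 8.07% of all genes, among them Ptprz1 (464 against 2143 CPM, log2 difference -2.21), the matrix protein Tnc (-2.34), the lipid-binding protein Fabp7 (-2.29) and the SHH effector Gli3 (-1.47). Among genes with at least 50 CPM in radial glia, the largest decreases were those of the chloride channel Ano1 (7.90 ± 3.48 against 91.0 ± 25.7 CPM, -3.52, SE 0.11), Pdzph1 (-2.82) and the sorting receptor Sorcs1 (114 ± 22.8 against 774 ± 107 CPM, -2.80). Arhgef4, Camk2a, Rgcc, B3gat2, Shc3, Mdfic and Lama1 differed by -2.56 to -2.44.

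**Figure D1:**
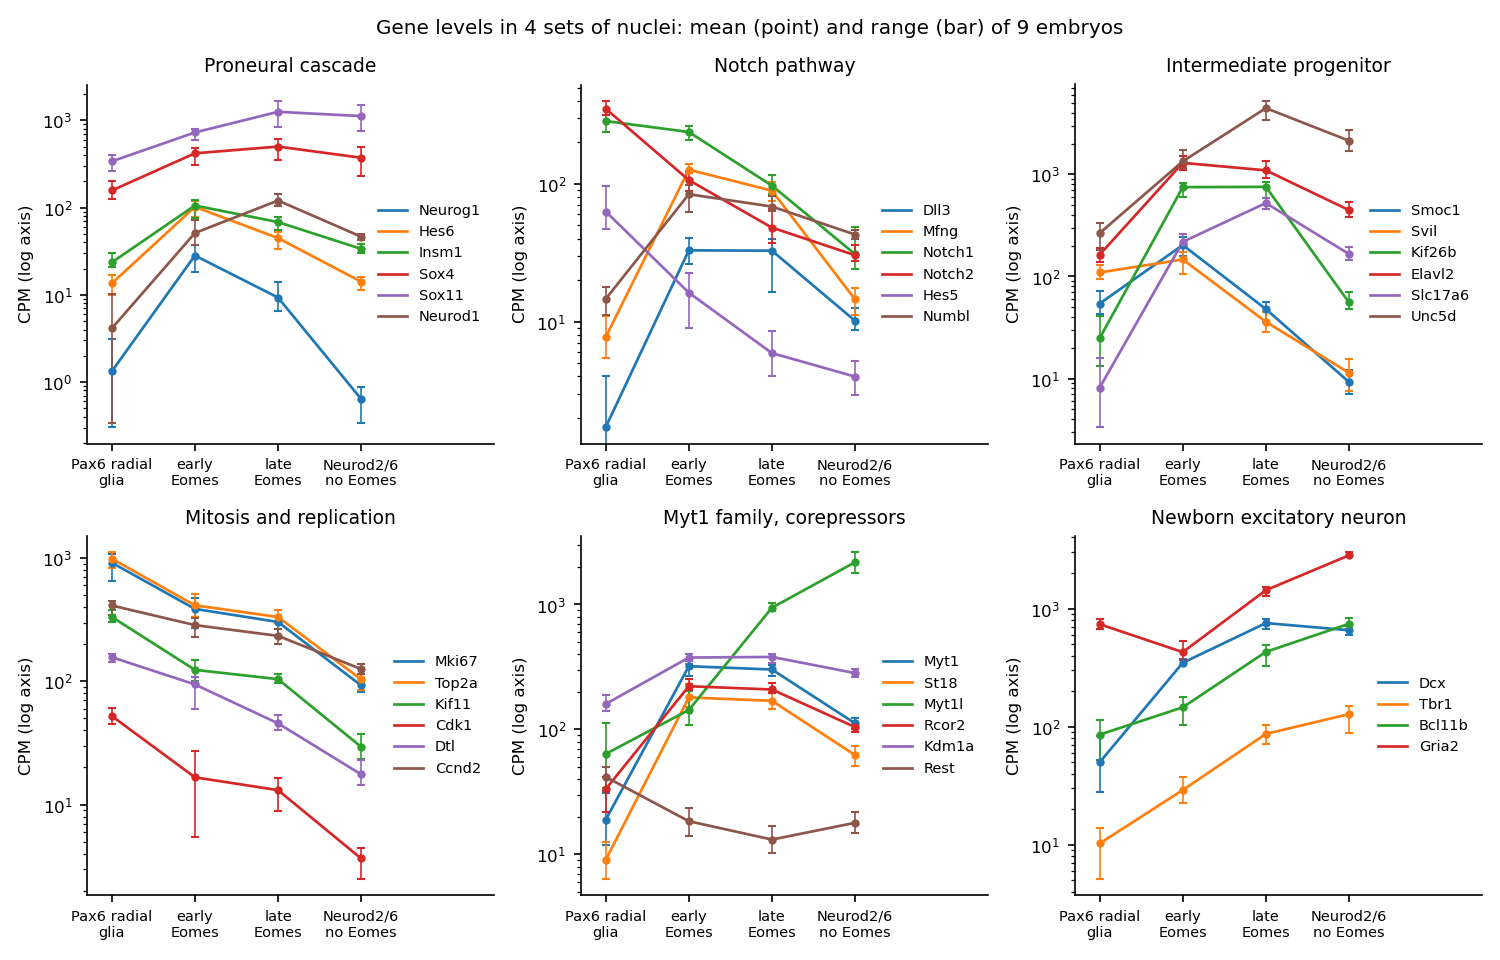
Levels of genes of 6 roles in CPM (log axis) in 4 sets of nuclei placed from progenitor to neuron: Pax6 radial glia, early Eomes, late Eomes, and nuclei with Neurod2 or Neurod6 but no Eomes. Points are means and bars the range of 9 embryos, and a bar that reaches 0 leaves the axis. Neurog1, Hes6, Smoc1 and Svil peaked in the early nuclei, while Myt1l rose at each step.

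Genes of the Notch pathway differed from radial glia in both directions. Of 8 ligands and modulators of the pathway tested, 3 were higher in the early nuclei. These were Dll3 (32.9 against 1.71 CPM in radial glia, log2 difference 4.23), Mfng (127 against 7.71, 4.11) and Numbl, an inhibitor of Notch signalling (84.1 against 14.6, 2.55). The fringe enzyme Lfng (-2.37) and the ligand Jag1 (-1.38) were lower. Of all genes, 5.07% were higher and 8.07% lower. Of 9 receptors and effectors, 3 were lower and none was higher: the receptors Notch2 (107 against 351 CPM, -1.75) and Notch3 (-1.51) and the coactivator Maml2 (-1.15). Notch1 stayed near its radial glia level, at 238 against 286 CPM (-0.27, SE 0.04). Between early and late nuclei, no ligand or modulator passed the threshold of 1 (Mfng 0.38, the ligand-trafficking ligase Mib1 0.37). In contrast, 4 of 11 receptors and effectors were higher in early nuclei, against 2.29% of all genes. These were Notch1 (238 ± 18.2 against 97.0 ± 10.5 CPM, 1.19), Notch2 (1.04), Notch3 (1.32) and the effector Hes5 (16.2 against 5.90 CPM, 1.31). Mfng and Dll3 RNA was thus near absent from radial glia, while Notch1 RNA was lower in late than in early nuclei and Notch2 and Notch3 RNA lower at each step.

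Against late nuclei, 912 of 12035 genes (7.58%) passed the same threshold, 276 higher (2.29%) and 636 lower (5.28%) in the early nuclei. Smoc1 was highest in this contrast among the genes named by size, at 203 ± 35.2 CPM in early and 47.9 ± 6.78 CPM in late nuclei (SD, n = 9, log2 difference 1.98, SE 0.06). Svil, an actin-binding protein, had 147 ± 22.1 and 36.0 ± 5.14 CPM (1.94, SE 0.08), Ncald 129 ± 18.1 and 33.8 ± 4.05 CPM (1.83) and Lpar1, a lysophosphatidic acid receptor, 214 ± 28.4 and 57.5 ± 5.84 CPM (1.79). Lrp4 (1.79), Thsd4 (1.75), Tmem132b (1.70), Sema3e (1.67), Gulp1 (1.64) and Gas1 (1.53) completed the named genes. All of these were higher in early nuclei in 9 of 9 embryos. Smoc1, at 54.3 CPM in radial glia, was also higher in early nuclei than there (1.90), so its level peaked in the early set, whereas Svil was at 109 CPM in radial glia (0.47).

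Of 18 newborn excitatory neuron genes, 13 were lower in early than in late nuclei, against 5.28% of all genes, and none was higher. Tbr1, the T-box factor of deep-layer neurons, had 29.1 ± 5.07 and 86.8 ± 10.4 CPM (-1.74). Bcl11b differed by -1.69 and the microtubule protein Dcx by -1.24. Neurod1, counted with the 14 proneural and neurogenic factors, had 51.1 ± 13.8 against 120.4 ± 12.4 CPM (-1.41). Of those 14, 3 were higher in early nuclei, against 2.29% of all genes, and 1 was lower, against 5.28%. Ndst3 (24.9 ± 7.84 against 201 ± 25.0 CPM, -3.20), Arpp21 (-3.07) and the splicing factor Rbfox1 (299 ± 110 against 2149 ± 207 CPM, -3.02) had the largest differences among genes with at least 50 CPM in late nuclei, followed by Myt1l, Hs3st4, Lrfn5, Cntn2, Hecw1, the potassium channel Kcnq3 and Cdh13 at -2.88 to -2.56. Of 15 other intermediate progenitor genes, 3 were higher in early nuclei (Smoc1, Svil and Tfap2c, 1.22), against 2.29% of all genes, and 4 lower (Unc5d -1.85, Celsr3 -1.57, Slc17a6 -1.39 and Cux2 -1.25). Kif26b (-0.13), Elavl2 (0.12) and Elavl4 (0.21) stood at near equal levels on both sides.

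Cycling was counted in nuclei thinned to 1500 UMIs, with a nucleus counted if it held at least 3 UMIs of a list of 43 S-phase or 54 G2/M genes. Of the early nuclei, 43.5% passed for S phase, 65.0% for G2/M and 73.7% for either. Pax6 radial glia passed in 72.0%, 88.4% and 95.1%, late nuclei in 26.5%, 56.1% and 61.3%, and nuclei with Neurod2 or Neurod6 but no Eomes, which should not cycle, in 12.7%, 35.5% and 40.9%. The last values are the background of these counts. The early nuclei lay between radial glia and late nuclei for both lists.

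Single genes gave the same order. Top2a, the topoisomerase of dividing cells, averaged 989 CPM in radial glia, 414 CPM in early and 333 CPM in late nuclei, and the proliferation marker Mki67 918, 387 and 303 CPM. Against radial glia, 42 of 53 G2/M genes and 11 of 43 S-phase genes were lower, against 8.07% of all genes. Against late nuclei, none of either list passed the threshold of 1, with estimates above 0 for 40 of 42 S-phase genes (median 0.53) and 45 of 53 G2/M genes (median 0.20), against a median of 0.02 over all genes. Of 10 genes of cell cycle exit tested, 2 were higher than in radial glia, against 5.07% of all genes, and none was lower. These were the inhibitors Cdkn1c, a brake on the cycle (37.0 against 5.70 CPM, 2.84), and Trp53inp1 (2.44). Estimates were above 0 for 6 of the 10 and below 0 for 4, with a median of 0.06, so the list as a whole was not raised.

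Mki67 or Top2a was detected in 2364 early nuclei (46.5%) at a median of 3030.5 UMIs, and neither in 2725 at 2227 UMIs, so depth differs between them. Eomes, which the rule required, had a mean of 2.59 and 2.73 UMIs per nucleus. Nes, the intermediate filament of progenitors, was at 120 against 63.6 CPM, Ptprz1 at 586 against 325 and Gli3 at 653 against 451. St18 was at 129 against 242 CPM, Elavl2 at 1093 against 1530 and Unc5d at 1157 against 1562. The early nuclei were thus not uniform: those with proliferation genes carried more radial glia RNA and less St18, Elavl2 and Unc5d RNA per UMI.

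The targeted gene Myt1l (chromosome 12, 29528384 to 29923213, plus strand of GRCm38) was present at a low level. Early nuclei held 204, 118 and 109 CPM in WT 1 to 3, 156, 129 and 130 CPM in Het 1 to 3, and 191, 135 and 115 CPM in KO 1 to 3. The genotypes overlapped, and replicate 1 was the highest in each. KO and WT differed by 0.08 (log2, SE 0.20, edgeR adjusted p = 0.999). A Myt1l UMI was found in 17.4% of early nuclei.

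Over the 9 embryos Myt1l averaged 63.7 CPM in Pax6 radial glia, 143 in early nuclei, 942 in late nuclei and 2178 CPM in nuclei with Neurod2 or Neurod6 but no Eomes. The early-late difference was -2.88 (log2, SE 0.07) and the early-radial glia difference 1.23 (SE 0.09). In late nuclei the embryos ran from 880 to 1018 CPM, and the KO-WT difference was 0.09 (SE 0.08). In the neurons WT held 1794, 2034 and 1939 CPM and KO 2354, 2613 and 2397 CPM, and these did not overlap. Early nuclei thus held far less Myt1l RNA than either later set.

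Relatives and partners of MYT1L had other patterns. Myt1 and St18, the other members of the family, were at 320 and 180 CPM in early nuclei, 18.9 and 9.03 CPM in radial glia, 302 and 169 CPM in late nuclei and 112 and 62.3 CPM in neurons, so both were highest with Eomes. Of 11 genes of the family and its corepressors, 5 were higher than in radial glia (Myt1 4.22, St18 4.35, Myt1l 1.23, the corepressor Rcor2 2.79 and the demethylase Kdm1a 1.26) and 1, the repressor Rest (-1.20), was lower, against 5.07% and 8.07% of all genes. Against late nuclei only Myt1l passed the threshold in this list, as lower, against 5.28% of all genes. The KO-WT difference was 0.09 for Myt1 and 0.30 for St18 (edgeR adjusted p = 0.999 for both), with St18 at 151, 151 and 164 CPM in WT, 190, 178 and 221 in Het and 230, 172 and 166 in KO. St18 did not overlap between WT and KO.

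**Figure D2:**
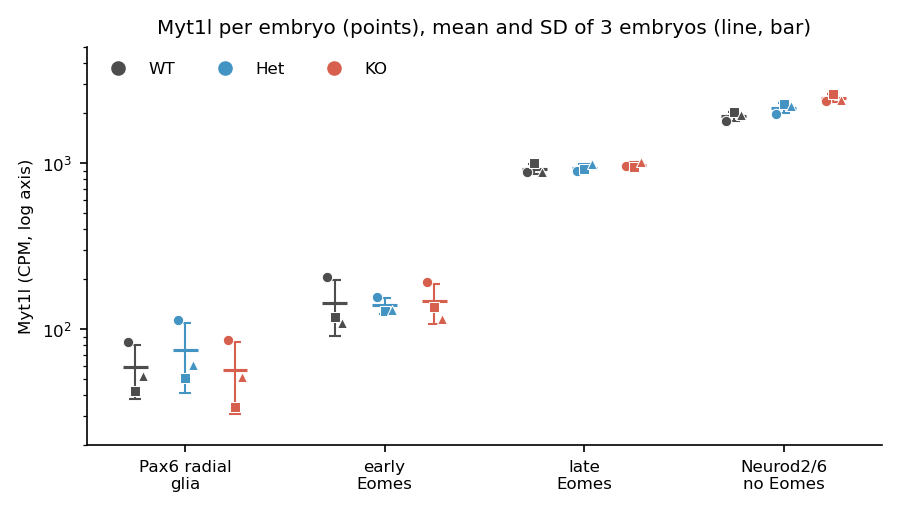
Myt1l in CPM (log axis) per embryo, by genotype, in 4 sets of nuclei. Each point is an embryo, 3 per genotype. The sets rise from 34.0 to 114 CPM in Pax6 radial glia, over 109 to 204 CPM in early nuclei, to 1794 CPM and more in neurons, and the genotypes overlap in the first 3 sets.

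Whether loss of MYT1L changed the number of early nuclei was asked first. They were 1.90, 2.61 and 2.99% of the kept nuclei in WT 1 to 3, 2.14, 2.92 and 2.37% in Het, and 2.39, 2.73 and 2.67% in KO. The WT range contained all KO values. The KO-WT difference was 0.0997 percentage points (two-sided exact permutation p = 0.8), and in thinned nuclei -0.0589 (exact permutation p = 1). With 3 against 3 embryos this test cannot go below 0.1.

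As a share of early and late nuclei together, the early nuclei of WT embryos averaged 32.6 ± 2.71%, those of Het 32.2 ± 1.83% and those of KO 34.1 ± 3.92% (mean ± SD of 3 embryos). The KO-WT difference was 1.496 percentage points (exact permutation p = 0.8), and the ranges of 30.7 to 35.7% and 29.7 to 37.2% overlapped. No difference in the balance between early and late nuclei was detectable at this number of embryos.

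**Figure D3:**
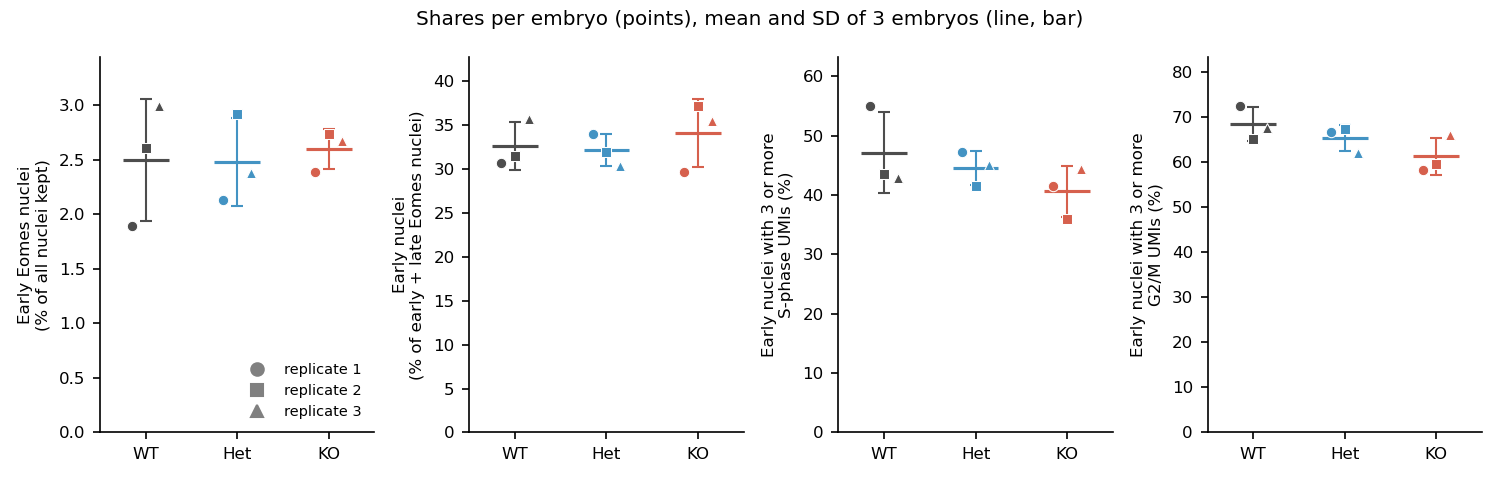
Shares per embryo by genotype: early nuclei among kept nuclei, early among early and late nuclei, and early nuclei with at least 3 UMIs of the S-phase or G2/M list after thinning to 1500 UMIs, all in percent. Points are embryos, lines means and bars SD (n = 3). The genotypes overlap in the panels, with KO G2/M shares of 58.2 to 66.0% and WT shares of 65.2 to 72.5%.

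The cycling share was lower in the KO means but overlapped between genotypes. Early nuclei with G2/M genes were 72.5, 65.2 and 67.7% in WT 1 to 3, 66.7, 67.4 and 62.0% in Het and 58.2, 59.7 and 66.0% in KO. KO 1 and KO 2 lay below every WT embryo, and KO 3 lay above WT 2. The KO-WT difference was -7.19 percentage points (exact permutation p = 0.2), and -2.37 where 2 UMIs of the list sufficed. The slope over all 9 embryos was -3.59 points per mutant allele (exact permutation p = 0.0298, adjusted p = 0.714 over 24 tests). For S-phase genes the shares were 55.0, 43.5 and 42.8% in WT, 47.2, 41.5 and 45.0% in Het and 41.5, 36.0 and 44.3% in KO, with WT 1 far above the rest and a KO-WT difference of -6.50 points (exact permutation p = 0.3). Without WT 1, the S-phase difference was -2.56 points, its smallest value with an embryo left out, and it is therefore set in large part by WT 1. It was -4.19 points without KO 2, -3.69 in nuclei thinned to 1000 UMIs and -10.5 with 3 of the 6 rule genes required.

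Genes were then compared between genotypes with edgeR, in a fit with genotype as the only factor. Calls with the replicate number as a block differed and are given with the alternatives at the end. No gene of 11695 passed the adjusted p of 0.05 with a log2 difference beyond 0.2 in KO against WT (0%), in Het against WT or in KO against Het. At an unadjusted edgeR p under 0.05 there were 525 genes for KO-WT (4.49%), 354 for Het-WT (3.03%) and 305 for KO-Het (2.61%). DESeq2 called 1 gene, Rspo3, for KO-WT and 0 for the others. Among the 7199 genes with at least 20 CPM the median SE of a log2 difference was 0.15, so a typical gene had an approximate 95% interval of 0.294 to either side. KO-WT and Het-WT share the WT embryos, and KO-WT and KO-Het the KO embryos.

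The list with the most genes on one side was that of G2/M. The summed level of a WT embryo was between 5018 and 5959 CPM, that of a Het embryo between 4290 and 4910 and that of a KO embryo between 4032 and 4833, so that each WT embryo lay above each embryo of the other genotypes, while Het and KO overlapped. In Pax6 radial glia nuclei the WT embryos (10722 to 10926 CPM) also lay above the Het (9869 to 10370) and KO embryos (9416 to 10708), whereas in late nuclei the genotypes overlapped. In early nuclei the KO-WT estimate was below 0 for 49 of 53 genes, with a median of -0.29, where the median of all genes was 0.01. In 17 of the 53, the WT and KO embryos did not overlap and KO was lower, against 6.01% of all genes, and 13 were lower at an unadjusted edgeR p under 0.05, against 2.34%. None was called. The median was -0.40 in run 1 and -0.20 in run 2, and -0.20 without WT 1. For Het-WT 49 of 53 estimates were below 0 as well (median -0.24, but -0.55 in run 1, -0.13 in run 2, -0.13 with no upper limits and -0.14 without WT 1), with the same WT embryos, and for KO-Het 31 of 53 (median -0.02, and -0.10 to 0.13 over the alternatives).

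Top2a illustrates the list. It stood at 514, 453 and 459 CPM in WT, 434, 442 and 350 CPM in Het and 330, 353 and 392 CPM in KO. All KO embryos were below all WT embryos, and Het lay between and overlapped KO. Between KO and WT the log2 difference was -0.37 (SE 0.10, edgeR adjusted p = 0.999). The mitotic kinase Cdk1 had 21.0, 22.1 and 27.2 CPM in WT, 18.6, 14.6 and 12.98 in Het and 5.44, 11.9 and 16.1 in KO (-0.96, SE 0.27, adjusted p = 0.999). The early nuclei of KO 1 held 1.1e+06 UMIs in total, so its Cdk1 level rests on a few UMIs. The spindle motor Kif11 had 148, 138 and 143 CPM in WT and 101, 117 and 113 in KO (-0.33, SE 0.10, adjusted p = 0.999), again without overlap. Mki67 had 452, 412 and 472 CPM in WT and 271, 413 and 354 in KO (-0.32, SE 0.13), and WT and KO overlapped.

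Of 43 S-phase genes, 32 had a KO-WT estimate below 0 (median -0.13, but -0.07 without KO 1, -0.08 in run 1 and -0.05 with no upper limits on UMIs and genes), 6 were lower without overlap, against 6.01% of all genes, 1 was higher without overlap, against 3.8%, and 2 were lower at an unadjusted p under 0.05, against 2.34%. Of 10 genes of cell cycle exit, 7 were below 0 (median -0.21, but -0.05 in run 1, -0.08 in run 2, -0.06 without WT 3, -0.14 without KO 2 and 0.00114 with 3 of the 6 rule genes required). Among the 7 were both D-type cyclins of the list, Ccnd1 (-0.46) and Ccnd2 (-0.25), which promote the cycle. The S-phase sum ran from 2362 to 2498 CPM over WT embryos, from 2224 to 2371 over Het and from 2005 to 2364 over KO.

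The radial glia list leaned the same way. Its sum ran from 2291 to 2549 CPM over WT embryos, from 2243 to 2493 over Het and from 2098 to 2280 over KO, where KO and WT did not overlap. Of 17 genes, 14 had a KO-WT estimate below 0. The median was -0.11, but -0.40 in run 1 and -0.01 in run 2, and -0.02 without WT 3, -0.22 without WT 2 and -0.17 without KO 3. Of the 17, 2 were lower without overlap, against 6.01% of all genes, and 4 were lower at an unadjusted p under 0.05, against 2.34%. Nes (chromosome 3, 87971078 to 87980451, plus strand) had the lowest p among genes lower in KO. It was at 100, 110 and 115 CPM in WT, 89.3, 99.3 and 120 CPM in Het, and 75.2, 65.5 and 74.3 CPM in KO, with every KO embryo below every other embryo. Between KO and WT it differed by -0.58 (SE 0.13, edgeR adjusted p = 0.999), and the KO-Het difference -0.52 (SE 0.13, adjusted p = 1.00). Sox9, a factor of radial glia, had 54.7, 54.7 and 57.8 CPM in WT and 27.2, 32.0 and 51.4 in KO (-0.53), Vim -0.28 and Notch2 -0.25.

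Tubb2b, a beta-tubulin (chromosome 13, 34126748 to 34130466, minus strand), had, with Nes and Top2a, one of the 3 lowest p values on the lower side among genes with at least 20 CPM. It had 150, 121 and 122 CPM in WT, 133, 127 and 116 in Het and 97.9, 79.9 and 98.2 in KO, where KO lay below all others (-0.47, SE 0.12, adjusted p = 0.999). Because tubulin genes are near-identical copies, reads may be split among them. Id4, the inhibitor of proneural factors, had 208, 114 and 151 CPM in WT, 145, 113 and 141 in Het and 105, 79.4 and 111 in KO (-0.63, SE 0.17, adjusted p = 0.999). WT and KO did not overlap for Id4, though WT 2 came within a few CPM of KO 3.

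Genes of the intermediate progenitor list had estimates mostly above 0, 13 of 15 (median 0.12), with sums that ran from 6265 to 7150 CPM over WT embryos, from 6687 to 7451 over Het and from 7484 to 7636 over KO. KO lay above WT and Het without overlap. The median was 0.03 without WT 1 and 0.06 without KO 2, and 0.20 in run 1 and 0.21 with 3 of the 6 rule genes required. Unc5d and Elavl2 were the 2 genes of the list at an unadjusted p under 0.05, where 2.15% of all genes were higher at that p. Unc5d had 1163, 1194 and 1225 CPM in WT, 1149, 1473 and 1248 in Het and 1747, 1477 and 1404 in KO (0.40, SE 0.10, adjusted p = 0.999), with every KO embryo above every WT embryo. It was the only 1 of the 15 that was higher without overlap, against 3.8% of all genes. Its level was lower in early than in late nuclei. Elavl2 differed by 0.24 (SE 0.10) and overlapped. Kif26b (0.10, SE 0.10), Slc17a6 (0.12, SE 0.12) and Smoc1 (0.05, SE 0.15) differed by about their SE or less.

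**Figure D4:**
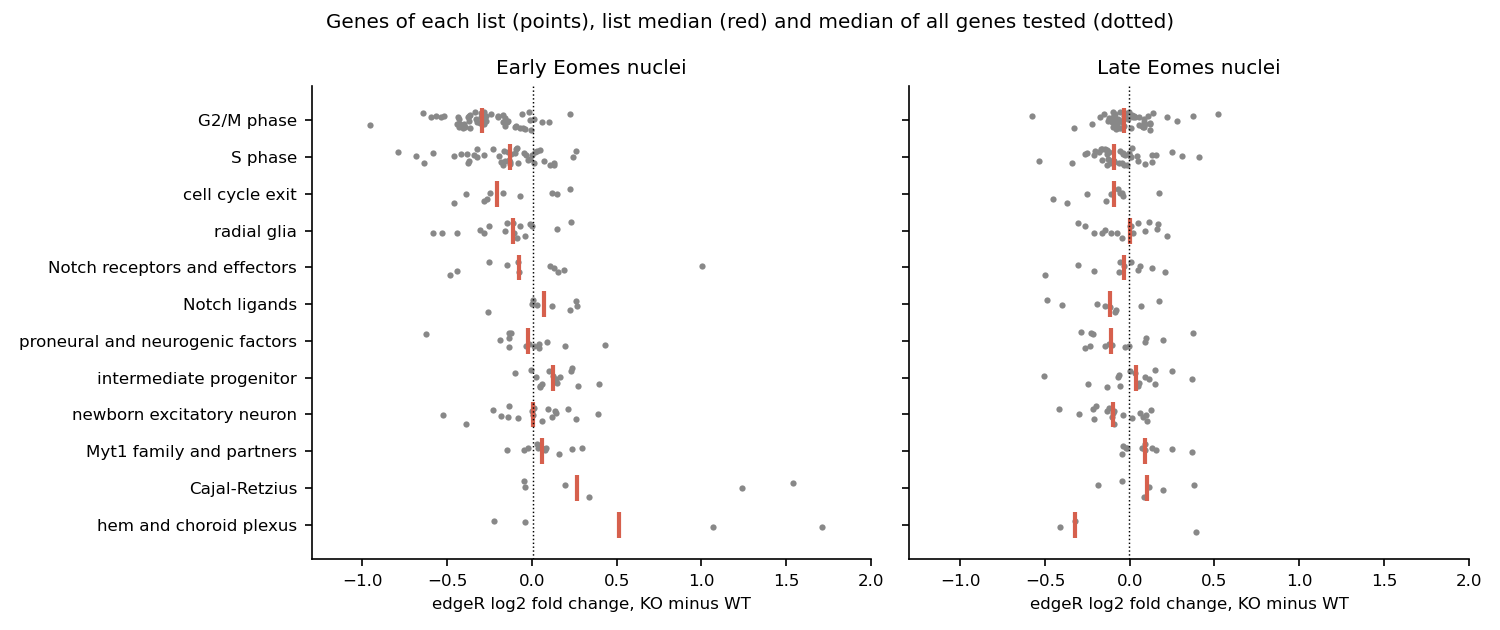
KO minus WT edgeR log2 fold change of the genes of 12 lists (points) in early nuclei on the left and late nuclei on the right, with the list median in red and the median of all genes tested as a dotted line. The G2/M median was -0.29 in early and -0.03 in late nuclei, and the intermediate progenitor median 0.12 and 0.04.

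The proneural and Notch lists had medians near 0. Of 14 proneural and neurogenic factors 8 were below 0 (median -0.02), and of 11 Notch receptors and effectors 6 were below 0 (median -0.08). Of 8 Notch ligands and modulators 7 were above 0 (median 0.07). Numbl (0.26) was the only gene of these 8 with an unadjusted edgeR p under 0.05, where 2.15% of all genes were higher at that p. Newborn neuron genes were divided 10 to 8 (median 0.01). At an unadjusted edgeR p under 0.05, 2 were higher, against 2.15% of all genes, among them the microtubule protein Map2 (0.21). At that p 1 was lower, the microtubule protein Mapt (-0.52), against 2.34%. Of 11 pallial regional factors, 7 were above 0 (median 0.05). The Myt1 family and its partners were 8 of 11 above 0 (median 0.06).

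Levels of the rule genes are given as a description, since the rule required them. Eomes was at 956, 968 and 1001 CPM in WT, 998, 925 and 857 in Het and 843, 992 and 1011 in KO. Neurog2 had 359, 314 and 367 CPM in WT, 358, 310 and 315 in Het and 254, 316 and 301 in KO, with KO 1 lowest. Dll1 had 251, 208 and 215 CPM in WT and 167, 208 and 214 in KO, Gadd45g 119, 104 and 113 against 85.2, 90.8 and 112, and Btg2 108, 128 and 133 against 90.6, 140 and 152. Nfatc2 had 58.4, 92.5 and 66.1 CPM in WT and 83.4, 71.2 and 74.3 in KO. The genotypes overlapped for each of the 7 genes, Rhbdl3 included.

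**Figure D5:**
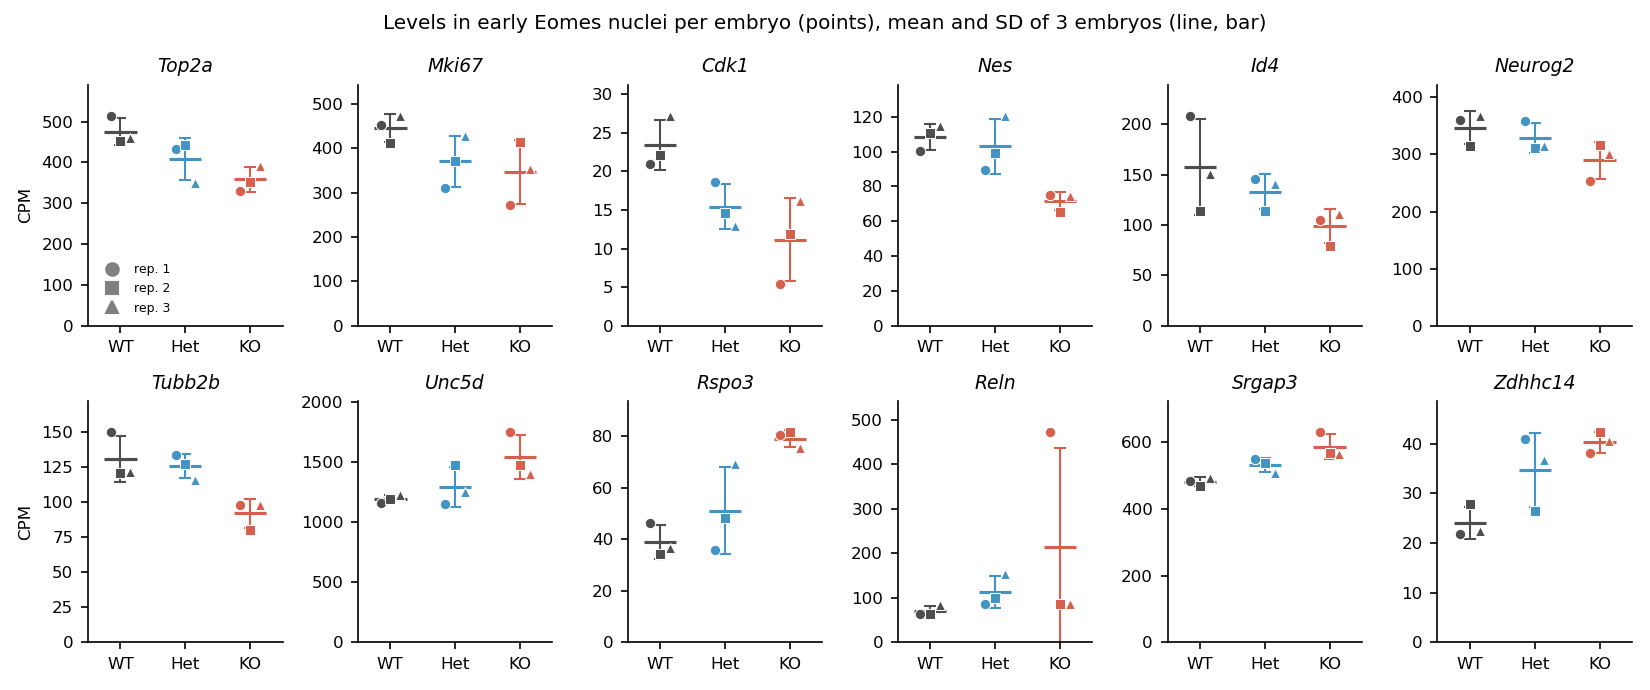
CPM per embryo in early nuclei for 12 genes, by genotype. Points are embryos, lines means and bars SD (n = 3 per genotype). Top2a, Cdk1, Nes, Id4 and Tubb2b lie lower in the 3 KO than in the 3 WT embryos and Unc5d, Rspo3, Srgap3 and Zdhhc14 higher, none of them with an adjusted edgeR p under 0.05, and for Reln KO 1 stands far above the rest.

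Rspo3, a secreted enhancer of WNT signalling (chromosome 10, 29452416 to 29535867, minus strand), had the lowest p of the KO-WT comparison. It was at 46.5, 34.2 and 36.6 CPM in WT, 35.7, 48.3 and 69.2 CPM in Het and 80.7, 81.5 and 75.3 CPM in KO. The KO embryos were above all others. The difference was 1.07 (log2, SE 0.19, edgeR adjusted p = 0.290), past the threshold with DESeq2 (adjusted p = 0.0240). Only 3.71% of early nuclei held an Rspo3 UMI. Rspo3 is also a gene of the cortical hem, and its level in nuclei with Neurod2 or Neurod6 but no Eomes was 141 CPM.

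The sum of vascular markers was also higher in KO than in WT. The 8 hem and choroid plexus markers, which include Rspo3, had sums between 53.6 and 84.8 CPM over WT embryos, between 55.1 and 128 over Het and between 101 and 167 over KO. Without Rspo3 the other 7 overlapped, with 38.3, 19.5 and 28.3 CPM in WT, 19.4, 25.8 and 58.4 in Het and 20.8, 40.2 and 91.4 in KO, and the defining choroid plexus gene Ttr was at 0.198 CPM. The 9 Cajal-Retzius markers had sums between 227 and 241 CPM over WT embryos, between 249 and 380 over Het and between 240 and 660 over KO, with Calb2 at 0.657 CPM. WT and KO overlapped in the Cajal-Retzius sum. The 8 vascular and mural markers, none of which reached 10 CPM, had sums between 12.4 and 13.7 CPM over WT embryos, between 8.98 and 19.4 over Het and between 18.7 and 24.5 over KO. Without the nuclei that held at least 2 Cajal-Retzius markers or Dlx1 or Dlx2, a choice made after seeing the data, the Rspo3 difference was 0.43 (edgeR adjusted p = 0.995). It was 0.59 in run 1 and 1.21 in run 2. Beyond this value the part of such nuclei in the Rspo3 difference was not tested.

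Reln shows the weight of a single embryo. It was at 62.9, 64.7 and 83.2 CPM in WT, 86.3, 99.3 and 154 in Het, and 471, 85.6 and 85.7 in KO. KO 1 alone stood apart, and the other KO embryos lay just above WT 3. Trp73, another Cajal-Retzius gene, was at 35.3 CPM in KO 1 and 4.47 to 19.5 in the other 8 embryos. Rspo2 had 18.2, 5.26 and 9.44 CPM in WT and 9.06, 23.7 and 57.1 in KO, and overlapped.

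Among genes with at least 20 CPM, the other 2 of lowest p on the higher side were Zdhhc14 and Srgap3. Zdhhc14, a palmitoyltransferase (chromosome 17, 5492557 to 5753811, plus strand), had 21.9, 27.9 and 22.4 CPM in WT, 40.9, 26.4 and 36.8 in Het and 38.1, 42.3 and 40.5 in KO (0.76, SE 0.19, edgeR adjusted p = 0.999). Srgap3, a regulator of actin and cell shape (chromosome 6, 112717971 to 112947266, minus strand), had 483, 468 and 493 CPM in WT, 549, 538 and 508 in Het and 629, 568 and 563 in KO (0.31, SE 0.08, adjusted p = 0.999). For Srgap3 the 3 genotypes did not overlap at all, with Het between WT and KO.

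In Het against WT, the genes of at least 20 CPM with the lowest p on the higher side were Rcan2, an inhibitor of calcineurin (21.9, 17.9 and 23.6 CPM in WT, 26.8, 34.8 and 51.9 in Het, log2 difference 0.86, SE 0.22), Pid1 (0.65, SE 0.18) and Iqsec1 (0.51, SE 0.14). On the lower side Gm42418 had 2100, 2098 and 2504 CPM in WT and 1422, 1635 and 1707 in Het (-0.47, SE 0.11). This locus on chromosome 17, 39846958 to 39848788, is annotated as a lincRNA and overlaps a ribosomal RNA repeat, so its level is uncertain. The mitotic genes Kif20b (138, 107 and 115 against 82.6, 92.6 and 80.8 CPM, -0.45, SE 0.12) and Sgo2a (52.9, 49.4 and 50.8 against 41.7, 30.9 and 25.2 CPM, -0.63, SE 0.17) followed. None had an edgeR adjusted p below 0.999.

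In KO against Het the lowest p belonged to Gm29478, a lincRNA on chromosome 9 (91404474 to 91562818, plus strand) near Zic4. It was at 62.0, 35.7 and 30.1 CPM in WT, 61.0, 109 and 38.9 in Het and 11.8, 9.80 and 19.7 in KO (-2.33, SE 0.37, edgeR adjusted p = 0.0867), with KO below every other embryo. Zic4 itself, a zinc finger factor (91362413 to 91389348 on the same strand), had 48.4, 41.0 and 22.4 CPM in Het and 27.2, 11.9 and 16.6 in KO (-1.09, SE 0.29), and overlapped. Wdr60 (0.55), Ebf1 (46.1, 53.3 and 61.3 against 130, 62.9 and 104 CPM, 0.85) and Acat1 (0.61) were the genes of lowest p on the higher side. Their edgeR adjusted p was 1.00. The Ebf1 difference was 0.08 with no upper limits on UMIs and genes, 0.17 in run 1 and 0.42 without the highest doublet scores, and with no filter on low counts it was 0.85 and called (adjusted p = 0.000137). That of Gm29478 was -1.27 with no upper limits. Gm29478 was called in 5 of 22 alternatives. The lowest edgeR adjusted p, 4.84e-27, came from the fit with no filter on low counts, where 9 genes were called. Calls of Gm29478 were also made without WT 1 (adjusted p = 0.0332), without Het 3 (0.00572) and with 3 of the 6 rule genes required (-3.01, 0.0499).

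The same genotype comparison was made in the late nuclei, which hold more RNA of Myt1l. Again no gene of 13504 passed with edgeR (0%), with 540 (4%) at an unadjusted p under 0.05. G2/M genes were below 0 in 31 of 53 (median -0.03), radial glia genes in 8 of 17 (median 0.00) and intermediate progenitor genes above 0 in 10 of 16 (median 0.04). Top2a differed by -0.09 (SE 0.09), Nes by -0.17 (SE 0.15), Unc5d by 0.15 (SE 0.14) and Rspo3 by 0.39 (SE 0.21) between KO and WT. In nuclei with Neurod2 or Neurod6 but no Eomes, 63 of 18990 genes (0.332%) were called. There the G2/M genes were below 0 in 48 of 54 (median -0.17), the radial glia genes in 14 of 18 (median -0.07), and the intermediate progenitor genes above 0 in 14 of 16 (median 0.08).

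The difference of the KO effect between early and late nuclei was then tested directly, with the embryo as a block. It passed for 1 of 13196 genes (0.00758%), and 638 (4.83%) had an unadjusted edgeR p under 0.05. For Top2a the effects differed by -0.30 (SE 0.08, adjusted p = 0.672), for Nes by -0.43 (SE 0.13, adjusted p = 0.786), for Cdk1 by -1.07 (SE 0.28, adjusted p = 0.590) and for Unc5d by 0.23 (SE 0.09, adjusted p = 0.994). Over the G2/M list the median of this difference was -0.25, but -0.54 in run 1 and -0.16 with no upper limits on UMIs and genes. The larger KO-WT estimates of the early nuclei were thus not shown to differ from those of the late nuclei for these genes.

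The gene that passed was Cntn4, a contactin of axons (chromosome 6, 105677660 to 106699310, plus strand). In early nuclei it was at 27.4, 23.7 and 28.3 CPM in WT, 61.8, 29.2 and 28.1 in Het and 59.8, 39.7 and 34.3 in KO. In late nuclei it was at 39.9, 41.3 and 74.1 CPM in WT, 50.4, 37.3 and 43.7 in Het and 34.2, 21.9 and 34.9 in KO. KO lay above WT in the early nuclei and below it in the late nuclei, without overlap in either. The KO-WT difference was 0.74 (SE 0.28) in early and -0.76 (SE 0.22) in late nuclei, and the effects differed by 1.504 (SE 0.25, edgeR adjusted p = 0.0199). Without WT 3 the difference of effects was 1.23 (adjusted p = 0.535), without WT 2 1.60 (0.0695), without KO 1 1.37 (0.129) and without KO 2 1.35 (0.139). In run 1 alone it was 0.27 and in run 2 2.04. Without the nuclei with Cajal-Retzius or subpallial markers it was 0.64 (adjusted p = 1). The call was lost in 11 of 21 alternatives.

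From these same counts, and not from the publication, 8 genes had been picked as higher and 5 as lower in KO neurons. In early nuclei 6 of the 8 had KO-WT estimates above 0 (median 0.18) and 4 of the 5 also above 0 (median 0.12), and none had an unadjusted p under 0.05. In late nuclei 7 of the 8 were above 0 (median 0.21) and 4 of the 5 below 0 (median -0.19). In the neurons without Eomes, 8 of the 8 were above 0 (median 0.50, 3 called as higher, against 0.211% of all genes) and 3 of the 5 below 0 (median -0.23, 1 called as lower, against 0.121%). The lists were picked on the same embryos and are not independent evidence of a direction.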

How the data were processed

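Nuclei of 9 mouse forebrains (3 WT, 3 Het and 3 KO embryos) were sequenced in 2 runs, giving 18 libraries. The deposited values are estimated counts: the authors mapped the reads to mm10 with ScaleRna, called cells with its CellFinder module and wrote UMI counts per gene and barcode, of which 6.87 to 9.13% per library are not whole. No release of the gene annotation and no strand setting was found: not given in the sources used here. Per the labels, the submitters' tools were Seurat 4.3.0, DESeq2 1.38.3 and Scanpy 1.12.0.

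Of 261143 barcodes, 201952 had 800 to 6000 UMIs, 300 to 3000 genes and at most 1% mitochondrial UMIs. Doublets were kept, since the automatic Scrublet threshold marked 0 to 16.6% per library and 0 in 3 of them, and the 5% of nuclei with the highest scores per library were left out as an alternative. Counts of a set of nuclei were summed per embryo over both runs and rounded. Genes were filtered with filterByExpr, scaled with TMM and tested with edgeR 4.0.16 (quasi-likelihood F test, Benjamini-Hochberg adjustment) in R 4.3.3. A gene was called at an adjusted p under 0.05 and a log2 difference beyond 0.2 between genotypes or beyond 1 between sets of nuclei. Sets were compared with the embryo as a block. DESeq2 1.42.0 was an alternative. Positions are from GENCODE for GRCm38 (54587 of 55335 identifiers matched).

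Shares were compared with two-sided exact permutation tests over embryos. Cycling was counted in nuclei thinned to 1500 UMIs. Named genes between genotypes were the 3 of lowest p in each direction among genes of at least 20 CPM, with sex-linked genes left out, and between sets the 10 of largest fold in each direction with at least 50 CPM in the higher set. The members and lists were chosen with earlier results of these data known. Embryos came from several litters, which the labels do not tie to embryos, so p-values measure the spread between these embryos and litter was not a covariate. Sex was not a covariate either: Xist was at 434 CPM in the early nuclei of WT 3 and at most 0.721 CPM in the other 8 embryos, and 4 Y-linked genes summed to 5.31 CPM in WT 3 and 764 to 919 CPM in the others. On simulated counts edgeR recovered 99% of 200 genes changed by 1 (log2) for KO-WT and 84.5% for the difference of effects, with 2 false calls in each. With 200 genes changed at once the adjustment is milder than with few. In the data the lowest KO-WT adjusted p was 0.290 (edgeR). The recovery is thus not the power to find a single changed gene or a smaller change. Some genes of the lists are counted with their list but not reported here by name.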

Additional observations from a re-analysis of the deposited data

Results flagged for a closer look

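Cntn4 was the only gene with a KO effect that differed between early and late nuclei by a direct test, among 13196 genes tested with edgeR. The effect in early nuclei exceeded that in late nuclei by 1.504 (log2, SE 0.25, edgeR adjusted p = 0.0199), with a KO-WT difference of 0.74 in early and -0.76 in late nuclei. The call was also made in run 2 alone (2.04, adjusted p = 0.00166) but not in run 1 alone (0.27). It was lost with DESeq2 (1.49, adjusted p = 0.256), without the embryo block (1.48), without the highest doublet scores (1.27, adjusted p = 0.315), with no upper limits on UMIs and genes (1.41, where Ebf1 was the gene called), with 3 of the 6 rule genes required (1.22, adjusted p = 0.558) and without nuclei with Cajal-Retzius or subpallial markers (0.64). It was also lost without WT 2, WT 3, KO 1 or KO 2, which makes 11 of 21 alternatives. Cntn4 was at 254 CPM in Eomes nuclei with 0 of the 6 rule genes and at 45.2 CPM in early nuclei with 2 of 6.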

How the results depend on the processing

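Shares and lists kept their direction under most alternatives. The G2/M share was lower in KO than in WT in 20 of 20 alternatives (-9.60 points in run 1 alone to -2.37 with at least 2 UMIs of the list), the S-phase share in 20 of 20 (-10.5 to -2.56). The KO-WT median was below 0 for the G2/M list in 22 of 22 alternatives and above 0 for the intermediate progenitor list in 22 of 22. Requiring 3 of the 6 genes gave a KO-WT difference in the share of kept nuclei of -0.000436 and a slope of -0.000218, and thinning to 1000 UMIs gave a thinned share difference of 0.0250 and a slope of 0.0125.

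Counts of called genes for KO-WT were 1 without the highest doublet scores, 1 with DESeq2, 1 with only the 6 embryos compared (Rspo3 each time) and 22 with no filter on low counts. For Het-WT they were 8 with no upper limits on UMIs and genes and 18 with no filter. For KO-Het they were 4 with no upper limits, 1 with 3 of the 6 genes required and 9 with no filter. The early-late count was 520 in run 1 alone and 1516 with no filter, the early-radial glia count 996 and 2365. The difference of effects had 0 calls with DESeq2, without the embryo block, with 3 of 6 genes, in run 1 alone and without nuclei with Cajal-Retzius or subpallial markers, 2 without the highest doublet scores, 2 in run 2 alone and 20 with no filter. The cause was not tested.

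Genotypes share replicate numbers. Same-numbered embryos correlated at 0.0844 to 0.199 in their deviations, over 0.1 in 6 of 9 pairs, and others at -0.149 to 0.0481. Every embryo correlated best with its own number, a hint from the data. With a replicate block edgeR called 3 genes for KO-WT (Rspo3, Id4 and mt-Nd2), 1 for Het-WT (Nrxn3) and 1 for KO-Het (Gm29478).

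Over the alternatives the KO-WT difference of Top2a ran from -0.57 to -0.25, of Tubb2b from -0.60 to -0.12 (run 1) and of Zdhhc14 from 0.45 to 0.91, and the Het-WT difference of Kif20b from -1.06 to -0.22. The KO-Het difference of Wdr60 ran from 0.16 to 0.99 and that of Acat1 from 0.33 to 0.92.

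Leaving out 1 embryo gave 0 to 1 calls for KO-WT and for KO-Het, 0 for Het-WT, 0 to 5 for the difference of effects (5 without KO 3), 884 to 946 for early-late and 1477 to 1544 for early-radial glia. KO-WT differences in percentage points, with slopes after them, were -0.202 to 0.347 (-0.0838 to 0.169) for the share of kept nuclei, -0.259 to 0.139 (-0.117 to 0.0669) for the thinned share, -0.0462 to 3.70 (-0.0572 to 1.67) for early among lineage nuclei, -9.55 to -5.18 (-4.65 to -2.70) for G2/M, -8.66 to -2.56 (-4.30 to -1.49) for S phase and -7.61 to -2.72 (-3.72 to -1.45) for either.

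Myt1l estimates near 0 changed sign. Het-WT was -0.0764 in run 2, -0.00991 without nuclei with other markers, -0.0236 with DESeq2 and -0.00893 with no filter. KO-Het was -0.0201 without the highest doublet scores and -0.0802 in run 1. The difference of effects was 0.0958 with 3 of 6 genes and 0.00829 in run 2. Without 1 embryo, KO-WT ran from -0.130 to 0.364, Het-WT from -0.163 to 0.292, KO-Het from -0.135 to 0.242 and the difference of effects from -0.212 to 0.302.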

Other observations

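Without the upper limits on UMIs and genes, edgeR called 8 genes for Het-WT in early nuclei, among them the basement membrane genes Col4a1, Col4a2 and Nid1 and the endothelial receptors Flt1 and Kdr. Col4a1, Nid1, Flt1 and Kdr were also the 4 called for KO-Het. Within the limits, the 8 vascular markers together stood at 8.98 to 24.5 CPM per embryo.

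Gm42418 was lower in Het than in WT embryos in each of the 4 sets of nuclei, at 1422 to 1707 CPM against 2098 to 2504 CPM in the early nuclei and at 1142 to 1300 CPM against 1590 to 1924 CPM in nuclei with Neurod2 or Neurod6 but no Eomes.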
